A study of Mus musculus with 6 samples.

Results

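The genes described here encode the parts of the inflammasome, the cytosolic machine with which macrophages detect infection and die by pyroptosis. The set has 10 members chosen by name, namely the sensors Nlrp3, Nlrc4, Naip2, Naip5 and Aim2, the adaptor Pycard, the caspases Casp1 and Casp4, and the executors Gsdmd and Ninj1. All 10 had a row among the 17217 rows of the deposited expression table.

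RNA sequencing was available for 3 libraries of CD74-/- and 3 libraries of CD74+/+ bone marrow-derived macrophages, called Cd74 knockout and Control below. Both groups were labelled as marrow cells of mice aged 8 weeks, grown with 30 ng/mL macrophage colony-stimulating factor (M-CSF) and given 100 ng/mL lipopolysaccharide (LPS, a bacterial cell wall product) for 24 h, so no unstimulated library stands beside them. The protocol text given with all 6 libraries names wild-type mice as the marrow source, and genotype was taken from the titles. How the knockout allele was made, and whether the replicates came from separate animals, is not given in the sources used here, so p-values measure the spread between these libraries, which may be technical. The knockout libraries were labelled batch 2 and the Control libraries batch 1, and genotype and batch cannot be told apart.

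An inflammasome forms when a sensor meets its trigger. NLRP3 responds to potassium loss and membrane damage, AIM2 binds cytosolic DNA, and NAIP proteins bind bacterial flagellin or secretion system parts and then engage NLRC4. Sensors recruit caspase-1 largely through the adaptor ASC, the product of Pycard, and caspase-1 cuts pro-IL-1β, pro-IL-18 and gasdermin D. Mouse Casp4 encodes the protein also called caspase-11, which binds LPS in the cytosol and cuts gasdermin D without a sensor or ASC. Gasdermin D then forms pores, and NINJ1 ruptures the plasma membrane. In macrophages LPS acts as the priming signal that raises Nlrp3 and Casp4 transcripts before any of this happens. The libraries report transcript levels alone, and neither cleavage nor cell death was measured.

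Levels are given in TPM, a transcript abundance scaled by gene length and library size, so that levels can be set side by side between genes. The libraries held 36445462 to 59236599 reads recovered from the TPM values. Cd74 itself stood at 63.1 to 65.3 TPM in the knockout libraries and at 593 to 632 TPM in the Control libraries, the direction the labels give. The Cd74 row was 1 of 28 rows whose 6 values were not whole reads at any gene length searched, so the size of its difference is uncertain. None of the inflammasome genes was among them (0 of 10). Knockout replicate 3 lay farthest from its group, with a mean absolute log2 distance of 0.199 from the other knockout libraries, against 0.132 to 0.150 for knockout replicates 1 and 2 and 0.129 to 0.168 for the Control libraries. Of 18 macrophage markers 13 had a row, with Cd68, Cd14, Lyz2 and Csf1r high in all 6 libraries, while Maf, Mertk, C1qa, C1qb and C1qc had none. The summed level of the 13 was 14440 to 15702 TPM in knockout and 11047 to 11580 TPM in Control libraries. Most of this was Lyz2, at 8102 to 9547 TPM in knockout and 4966 to 5622 TPM in Control libraries. Of 12 tested, 6 rose (Csf1r, Itgam, Lyz2, Cx3cr1, Spi1 and Trem2) and 1, Adgre1, fell. Over all tested rows 18.5% were called higher and 10.1% lower. The class II genes H2-Aa, H2-Ab1 and H2-Eb1 were under 1 TPM in every library. Neutrophil markers (3 of 8 with a row, Ly6g, Mpo and Elane without) summed to 23.8 to 29.3 TPM in knockout and 17.6 to 18.1 TPM in Control libraries, and of the tested members S100a8 rose by 1.73 and Csf3r fell by 0.62 on the log2 scale (limma adjusted p = 0.00142 and 0.00732). Of the mast cell and basophil markers Hdc alone had a row, at 4.37 to 9.03 TPM in knockout and 21.9 to 31.2 TPM in Control libraries. B cell markers summed to 11.97 to 12.7 and 8.14 to 10.3 TPM in knockout and Control libraries (3 of 6 with a row, Ms4a1 without). Most of this was Ighm, at 11.7 to 12.5 and 7.68 to 9.81 TPM, while Cd79a and Pax5 were under 1 TPM in every library. T and NK markers summed to 10.8 to 11.3 and 12.6 to 13.9 TPM (Lck alone of 7). Dendritic cell markers summed to 6.24 to 7.02 and 5.36 to 8.26 TPM (4 of 7, Flt3 without). Ighm was called higher and Lck and Hdc lower in the knockout (limma adjusted p = 0.0191, 0.0307 and 0.00461). The dendritic cell markers Itgax and Xcr1 were tested and not called. Stromal and erythroid markers summed to under 2 TPM in every library. The part of these markers in the results was not tested, and fewer cells of a type and less RNA per cell cannot be told apart in bulk RNA.

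Knockout and Control libraries were compared with limma on log2(TPM + 1), and a gene was called at a Benjamini-Hochberg adjusted p under 0.05 over 13034 tested rows, those with a mean of at least 1 TPM. Of the 10 genes 9 were tested. Casp4, Naip5, Nlrp3 and Naip2 were lower and Gsdmd was higher in the knockout, while Casp1, Aim2, Ninj1 and Nlrc4 were not called. Over all tested rows 28.5% were called, 10.1% lower and 18.5% higher in the knockout. The median log2 fold change of the 9 genes was -0.17, and that of all tested rows was 0.04. The libraries of the groups did not overlap for 7 of the 9, 5 lower and 2 higher in the knockout, and the same held for 50% of tested rows, 19.8% lower and 30.2% higher. Each of the 9 log2 fold changes was smaller in size than that of Cd74, and the largest on the log2 scale was that of Casp4, whose mean TPM fell by 33.9%.

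**Figure D1:**
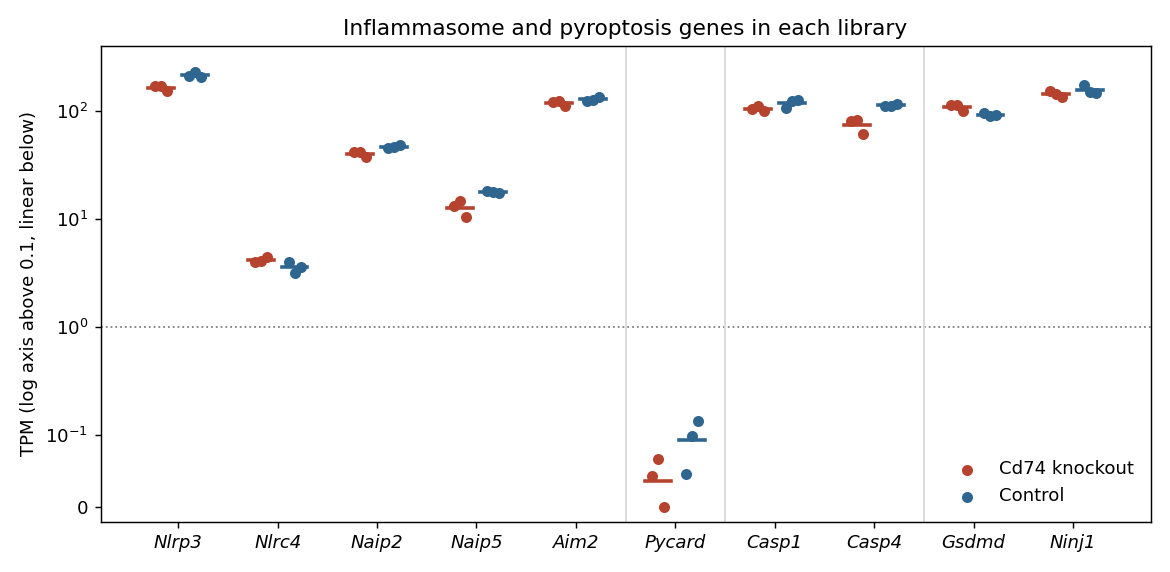
Expression of the 10 genes in TPM (y axis, logarithmic above 0.1 and linear below) in the 3 Cd74 knockout libraries (red, left) and 3 Control libraries (blue, right), with 1 point a library and a bar at each group's mean. The dotted line marks 1 TPM. Pycard lies below it in all 6 libraries, while the other genes range from Nlrc4 at 3.16 to 4.48 TPM to Nlrp3 at 154 to 231 TPM.

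Among the sensors, Nlrp3 was the most abundant. It stood at 172, 169 and 154 TPM in knockout replicates 1 to 3, against 210, 231 and 207 TPM in Control replicates 1 to 3. The groups were separate, and the highest knockout library lay below the lowest Control library. The means were 165 ± 9.17 TPM in the knockout and 216 ± 12.9 TPM in the Control (SD, n = 3 each), and Nlrp3 fell by 0.39 on the log2 scale (SE 0.06, limma adjusted p = 0.00691). The call held in all 13 alternative settings, with adjusted p of 0.00101 to 0.0252 and log2 fold changes of -0.43 to -0.34. Nlrp3 ranked above 94.5% of all rows in the knockout and 96.2% in the Control, and was the highest of the 10 genes in both groups.

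Naip5 and Naip2 encode sensors upstream of NLRC4, and in mice NAIP5 recognises flagellin and NAIP2 the inner rod protein of type III secretion systems. Naip5 had 13.3, 14.6 and 10.4 TPM in knockout replicates 1 to 3, against 18.2, 17.9 and 17.4 TPM in Control replicates 1 to 3. The groups did not overlap, and knockout replicate 3 was the lowest library. Naip5 fell by 0.46 on the log2 scale (SE 0.12, limma adjusted p = 0.0241), a call lost without Control replicate 1, 2 or 3 (adjusted p = 0.0662 to 0.0766). Without knockout replicate 3 the log2 fold change was -0.33 and the call held (adjusted p = 0.0133).

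Naip2 was the more abundant of the pair, with 41.6, 42.0 and 37.2 TPM in knockout replicates 1 to 3 and 45.1, 46.1 and 49.0 TPM in Control replicates 1 to 3. The groups stood apart by a small gap. Naip2 fell by 0.21 on the log2 scale (SE 0.06, limma adjusted p = 0.0471), just inside the threshold. This call was lost when any 1 of the 6 libraries was left out (adjusted p = 0.0645 to 0.145), without the filter on low rows (0.0631) and with a replicate block (0.0737).

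The Naip genes lie together on chromosome 13 and are close copies, so reads may have been shared among them. Of the 100-base windows in GENCODE M21 transcripts, 16.2% of those of Naip5 and 4.44% of those of Naip2 also occurred in transcripts of other genes, and the 4 genes sharing most windows with either were Naip copies. The longest run common to the longest Naip2 and Naip5 transcripts was 140 bases and lay within the coding part of both, and it is shown because a read inside it cannot be assigned to either gene:
Naip2 and Naip5 shared run: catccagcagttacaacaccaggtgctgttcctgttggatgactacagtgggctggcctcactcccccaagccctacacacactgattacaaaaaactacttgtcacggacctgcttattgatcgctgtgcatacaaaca
Another copy, Naip6, stood at 11.4, 10.0 and 9.64 TPM in knockout replicates 1 to 3 and at 10.0, 11.5 and 11.5 TPM in Control replicates 1 to 3, with overlapping groups, and was not called (log2 fold change -0.08, SE 0.09, limma adjusted p = 0.518). The ratio of Naip2 to Naip5 within a library was 3.13, 2.87 and 3.58 in the knockout and 2.47, 2.58 and 2.81 in the Control libraries, higher in all 3 knockout libraries.

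The promoters of Naip2 and Naip5 also share letters close to the gene start. The promoter of Naip6, the copy not called, was not read, and a link of shared letters to the calls was not tested. The sequences below are the 250 bases before each start in the RefSeq table for GRCm38.p6. They are shown because Naip2 and Naip5 are close copies. Capitals mark their longest common run of 34 bases, which begins 39 bases before the Naip2 start (chr13:100202123-100202372, minus strand) and 46 bases before the Naip5 start (chr13:100247337-100247586, minus strand):
Naip2 promoter: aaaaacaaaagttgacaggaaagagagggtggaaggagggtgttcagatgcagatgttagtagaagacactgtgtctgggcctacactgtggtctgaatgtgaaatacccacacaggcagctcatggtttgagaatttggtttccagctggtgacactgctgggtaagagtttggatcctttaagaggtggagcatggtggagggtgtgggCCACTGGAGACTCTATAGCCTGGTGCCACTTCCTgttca
Naip5 promoter: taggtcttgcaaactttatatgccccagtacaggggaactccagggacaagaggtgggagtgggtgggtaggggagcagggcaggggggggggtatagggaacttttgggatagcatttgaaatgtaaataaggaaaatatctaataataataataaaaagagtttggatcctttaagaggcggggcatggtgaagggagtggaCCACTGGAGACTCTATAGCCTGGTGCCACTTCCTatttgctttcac

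Nlrc4, the partner through which the NAIP sensors recruit caspase-1, was the lowest of the tested genes. It had 4.04, 4.10 and 4.48 TPM in knockout replicates 1 to 3 and 4.00, 3.16 and 3.62 TPM in Control replicates 1 to 3, from 218 to 362 reads a library. The lowest knockout library was barely above the highest Control library, and the difference was not called (log2 fold change 0.18, SE 0.12, limma adjusted p = 0.268). Aim2, the DNA sensor, was among the more abundant members. It stood at 121, 123 and 110 TPM in knockout replicates 1 to 3 and at 125, 127 and 134 TPM in Control replicates 1 to 3. Its groups did not overlap, and the log2 fold change of -0.12 (SE 0.06, limma adjusted p = 0.142) was not called in any of the 13 alternatives.

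Pycard, the adaptor gene, was almost without reads. It had 3, 4 and 0 reads in knockout replicates 1 to 3, or 0.0441, 0.0671 and 0 TPM, and 2, 6 and 8 reads in Control replicates 1 to 3, or 0.0465, 0.0984 and 0.135 TPM. The groups overlapped, and in all 6 libraries the gene was too low to test. The 0 of knockout replicate 3 allows up to 0.0470 TPM (3 reads, a limit that covers counting error only). Summed over 3 libraries, 7 reads came from the knockout and 16 from the Control, too few to give a fold. The same libraries held 3063 to 4275 reads of Ninj1 and 9642 to 15010 reads of Nlrp3. Its TPM values rest on a length of 3800 bases, and a shorter transcript would give a higher TPM for the same reads. Of its 100-base windows 10.3% were shared with the predicted gene Gm45205. As background, primary mouse macrophages are known to express ASC, and at least 1 mouse macrophage line in wide use is known to lack it. Which cells these libraries hold was not tested here.

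Casp4 showed the largest log2 fold change of the 9 tested genes. It had 80.5, 82.5 and 61.8 TPM in knockout replicates 1 to 3, against 111, 112 and 117 TPM in Control replicates 1 to 3. The groups were far apart, and knockout replicate 3 was again the lowest library. The means were 75.0 ± 11.4 TPM in the knockout and 113 ± 3.22 TPM in the Control (SD, n = 3 each), and Casp4 fell by 0.60 on the log2 scale (SE 0.11, limma adjusted p = 0.00881). The call held in all 13 alternatives (adjusted p = 0.00173 to 0.0375), and without knockout replicate 3 the log2 fold change was -0.47.

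Casp1, which carries the inflammatory protease of the canonical pathway, was less clear. It had 105, 111 and 101 TPM in knockout replicates 1 to 3 and 107, 125 and 126 TPM in Control replicates 1 to 3. Control replicate 1 fell within the knockout range, so the groups overlapped. At a log2 fold change of -0.17 (SE 0.08) and a limma adjusted p of 0.124 it was not called as deposited, but it was called without Control replicate 1 (-0.25, adjusted p = 0.0356) and with limma-voom on recovered reads (-0.21, adjusted p = 0.0432). The ratio of Casp1 to Casp4, in which library scaling cancels, was 1.30, 1.34 and 1.63 in knockout replicates 1 to 3 and 0.958, 1.12 and 1.08 in Control replicates 1 to 3. The groups did not overlap. This ratio was chosen after the levels were seen and carries no test.

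Promoters were read for 9 of the 10 genes (11 starts), as the 250 bases before each start in the RefSeq table for GRCm38.p6. Gsdmd, the gene called higher, had no start in it and was not read. NF-κB, the factor that LPS activates, is known to drive Nlrp3 and Casp4. The κB consensus was found on either strand before 4 of the 11 starts, those of Casp4 (both starts), Nlrp3 (1 of 2 starts) and Naip5. The 2 Casp4 windows overlap and hold the same matches, so the 4 starts carry 3 separate sets of matches. The consensus stood before 7.25% of all 32851 starts in the table. These 3 genes were among the 4 called lower, and the other, Naip2, had no match. Casp1, Aim2, Ninj1 and Nlrc4, which were not called, and Pycard, which was not tested, had none either. The gene called higher had no start to set beside them, and a link of the matches to the calls was not tested. A match of letters is a description and not a binding site. The Casp4 and Nlrp3 windows are shown because these genes had the calls that held in every setting. Capitals mark the κB matches, and the first stretch of capitals in Casp4 holds a pair of overlapping matches, GGGGATTTCC and GGGATTTCCC. Casp4 lies at chr9:5308599-5308848 and this Nlrp3 start at chr11:59541319-59541568, both on the plus strand:
Casp4 promoter: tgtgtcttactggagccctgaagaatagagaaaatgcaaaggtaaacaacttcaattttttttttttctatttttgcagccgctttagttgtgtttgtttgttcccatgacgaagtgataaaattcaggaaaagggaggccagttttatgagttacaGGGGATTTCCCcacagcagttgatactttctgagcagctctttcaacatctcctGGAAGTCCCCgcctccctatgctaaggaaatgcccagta
Nlrp3 promoter: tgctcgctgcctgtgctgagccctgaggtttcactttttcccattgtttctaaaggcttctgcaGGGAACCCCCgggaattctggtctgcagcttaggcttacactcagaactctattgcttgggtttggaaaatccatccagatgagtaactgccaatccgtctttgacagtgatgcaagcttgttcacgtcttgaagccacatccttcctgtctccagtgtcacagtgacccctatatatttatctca

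Gsdmd, the pore-forming target of both caspases, moved the other way. It had 113, 114 and 101 TPM in knockout replicates 1 to 3, against 94.9, 90.1 and 91.4 TPM in Control replicates 1 to 3. All 3 knockout libraries lay above all 3 Control libraries. The means were 109 ± 7.27 TPM in the knockout and 92.1 ± 2.51 TPM in the Control (SD, n = 3 each), and Gsdmd rose by 0.24 on the log2 scale (SE 0.06, limma adjusted p = 0.0245). The call was lost when knockout replicate 1 or 2 or Control replicate 1, 2 or 3 was left out (adjusted p = 0.0507 to 0.0823), and it held without knockout replicate 3 (0.30, adjusted p = 0.00565). Ninj1, the executor of the last step, had 152, 143 and 134 TPM in knockout replicates 1 to 3 and 172, 149 and 147 TPM in Control replicates 1 to 3. Its groups overlapped, and it was not called in any setting (log2 fold change -0.12, SE 0.08, limma adjusted p = 0.268).

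**Figure D2:**
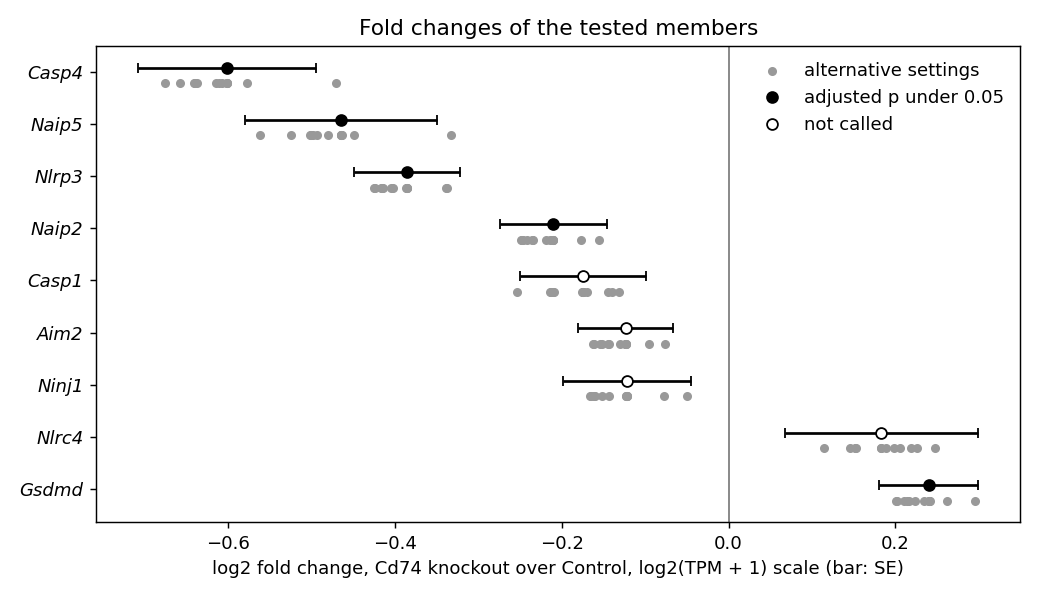
Log2 fold change of Cd74 knockout over Control (x axis, log2(TPM + 1) scale) for the 9 tested genes, with the SE as a bar. Filled points passed an adjusted p under 0.05, open points did not, and grey points give the same gene under the alternative settings. Casp4, Naip5, Nlrp3 and Naip2 lie below 0 at -0.60, -0.46, -0.39 and -0.21, Gsdmd lies at 0.24, and no gene changes sign in any setting.

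Within a library, the ratio of the substrate transcript to those of its upstream parts was higher in the knockout. The ratio of Gsdmd to Casp4 was 1.40, 1.38 and 1.63 in knockout replicates 1 to 3 and 0.853, 0.806 and 0.781 in Control replicates 1 to 3. That of Gsdmd to Nlrp3 was 0.658, 0.674 and 0.652 in the knockout and 0.452, 0.391 and 0.442 in the Control libraries. That of Gsdmd to Casp1 was 1.08, 1.03 and 0.998 in the knockout and 0.891, 0.721 and 0.723 in the Control libraries. None of these ratios overlapped between the groups. For Casp4 and Nlrp3 this followed from the levels. All knockout libraries lay above all Control libraries for Gsdmd, and below them for Casp4 and Nlrp3. Gsdmd was also higher relative to Ninj1, the executor of the last step. The ratio of Ninj1 to Gsdmd was 1.34, 1.26 and 1.33 in knockout replicates 1 to 3. In Control replicates 1 to 3 it was 1.81, 1.66 and 1.60, again without overlap. The ratios were chosen after the levels were seen and carry no test, and ratios of gene pairs not given in the text were not surveyed.

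**Figure D3:**
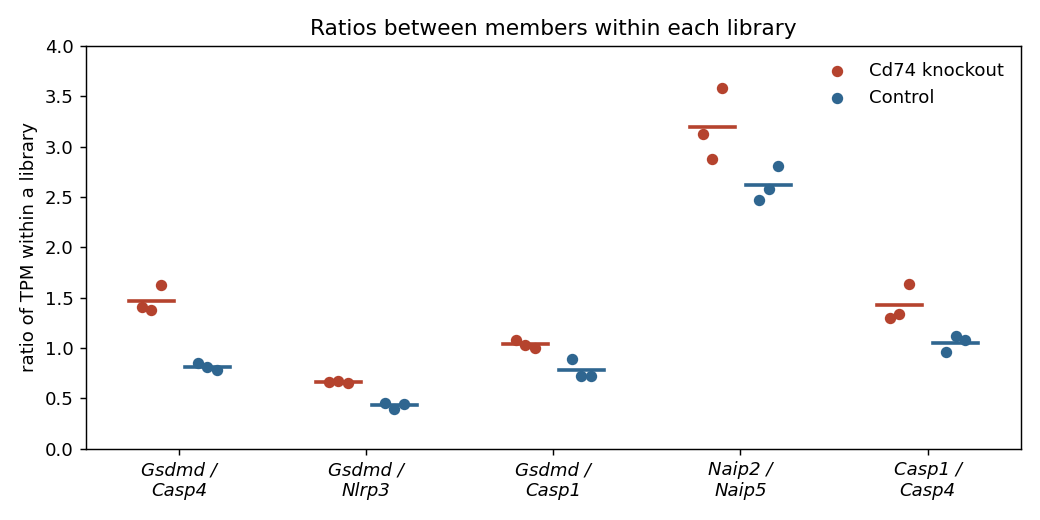
Ratio of TPM between pairs of genes within each library (y axis, linear from 0), with Cd74 knockout libraries in red on the left and Control libraries in blue on the right of each pair and bars at group means. Gsdmd over Casp4 averages 1.47 in the knockout and 0.814 in the Control libraries, and none of the 5 ratios overlaps between the groups. For Gsdmd over Casp4 and Gsdmd over Nlrp3 this follows from the levels of the single genes. The ratios were chosen after the levels were seen.

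The order of mean levels changed in 1 place. From the top, knockout means ran Nlrp3, Ninj1, Aim2, Gsdmd, Casp1, Casp4, Naip2, Naip5, Nlrc4 and Pycard. Control means ran Nlrp3, Ninj1, Aim2, Casp1, Casp4, Gsdmd, Naip2, Naip5, Nlrc4 and Pycard. By its mean Gsdmd thus stood above both caspases in the knockout and below them in the Control. This order did not hold in every library. The ratio of Gsdmd to Casp1 was 0.998 in knockout replicate 3, and that of Casp1 to Casp4 was 0.958 in Control replicate 1. Neighbours that overlapped over the 3 libraries were Aim2 with Gsdmd and Gsdmd with Casp1 in the knockout, and Aim2 with Casp1 and Casp1 with Casp4 in the Control. Within the knockout, replicate 3 was the lowest library for 8 of the 9 tested genes and the highest for Nlrc4, and over all tested rows it was the lowest for 44.1%. Its log2 distance from the mean of the other 2 knockout libraries was -0.39 for both Casp4 and Naip5 and -0.09 to -0.17 for Nlrp3, Naip2, Aim2, Casp1, Gsdmd and Ninj1.

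Of 73 other genes of the pathway, in 6 lists, 57 were tested, and 7 rose, 9 fell and 41 were not called, beside 18.5% of all tested rows called higher and 10.1% called lower. Il1a and Il1b, whose products leave the cell through this machine, were among the 3 steepest falls, with Gbp5 between them. Il1b stood at 610, 597 and 226 TPM in knockout replicates 1 to 3 and at 1484, 1233 and 1433 TPM in Control replicates 1 to 3 (log2 fold change -1.66, SE 0.36, limma adjusted p = 0.0151), a call lost without Control replicate 1 or 3 (adjusted p = 0.0524 to 0.0559). Il1a fell by 1.75 on the log2 scale (SE 0.32). Il18, which like Il1b encodes a caspase-1 substrate, stood at 84.5, 92.0 and 56.9 TPM in knockout replicates 1 to 3. In Control replicates 1 to 3 it had 85.8, 65.4 and 82.6 TPM, so the groups overlapped, and it was not called.

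Among the other sensors 1 of 8 tested genes was called. Nlrc3, which encodes a dampener of innate signalling, fell by 0.50 on the log2 scale (SE 0.07, limma adjusted p = 0.0048). Nlrp1b, Nod1, Nod2, Nlrx1, Nlrp10, Naip6 and Zbp1 were not called. Nlrp1a and Naip1 were under 1 TPM in every library, and Nlrp6, Nlrp12 and Mefv had no row.

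Among the other caspases 0 fell. Casp8, which links death receptors to apoptosis and can also cut gasdermin D, rose by 0.25 (SE 0.07, limma adjusted p = 0.0353). Its call was lost in 7 alternatives, namely both scalings and the removal of knockout replicate 1 or 2 or Control replicate 1, 2 or 3 (adjusted p = 0.0505 to 0.106). Casp12 had no row.

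Among other death executors 0 of 5 rose and 1 fell. Gsdme, another pore-forming gasdermin, was at 3.68 ± 0.503 TPM in the knockout and 5.22 ± 0.153 TPM in the Control (SD, n = 3 each), a fall of 0.42 on the log2 scale (SE 0.11, limma adjusted p = 0.0331). This call was lost in 6 alternatives, with a replicate block and without knockout replicate 2 or 3 or Control replicate 1, 2 or 3 (adjusted p = 0.0566 to 0.0991). Mlkl and Ripk3, the necroptosis effector and its kinase, were not called, at log2 fold changes of -0.01 (SE 0.07) and 0.03 (SE 0.05). Gsdma and Gsdmc4 were under 1 TPM in every library, and Gsdma2, Gsdma3, Gsdmc, Gsdmc2, Gsdmc3 and Ninj2 had no row.

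Of 23 tested regulators 3 rose and 2 fell. Gbp5 and Gbp2, guanylate-binding proteins that open bacterial vacuoles and aid caspase-11 and NLRP3 activation, were the falls. Gbp5 stood at 8.76, 7.53 and 3.64 TPM in knockout replicates 1 to 3 and at 29.7, 19.7 and 20.3 TPM in Control replicates 1 to 3 (log2 fold change -1.71, SE 0.29, limma adjusted p = 0.0074), and its groups were wide apart. Gbp2 fell by 0.67 (SE 0.18, limma adjusted p = 0.0296), a call lost without Control replicate 1, 2 or 3 (adjusted p = 0.0680 to 0.0970), and Gbp genes are close copies that may share reads. Kcnk6, the potassium channel TWIK2 that feeds NLRP3 activation, rose by 0.76 (SE 0.14), Hmgb1, an alarmin released on lysis, by 0.69 (SE 0.10), and Eif2ak2, the kinase PKR, by 0.52 (SE 0.06), with limma adjusted p = 0.0108, 0.00482 and 0.00307. Hmgb1 has processed pseudogenes that may have shared its reads. Nek7, the kinase that NLRP3 needs to assemble, was at a log2 fold change of -0.05 (SE 0.05) and was not called, and neither were Txnip (-0.52, SE 0.16, limma adjusted p = 0.0529) and P2rx7, the ATP receptor that triggers NLRP3 (0.25, SE 0.09, limma adjusted p = 0.0756). Trim31 and Irgb10 had no row under those symbols.

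Of 10 genes of priming and transcription 2 rose and 3 fell. The falls were Ticam1, the TLR4 adaptor TRIF that leads to interferon and caspase-11 induction (-0.54, SE 0.09), and the NF-κB subunit genes Nfkb1 (-0.30, SE 0.06) and Rela (-0.22, SE 0.05), with limma adjusted p = 0.00689, 0.0103 and 0.0147. The rises were Myd88, another TLR4 adaptor (0.33, SE 0.06, limma adjusted p = 0.0111), and Irf2, known to be needed for Gsdmd transcription in mouse macrophages (0.29, SE 0.06, limma adjusted p = 0.0171). Rela lost its call without knockout replicate 2 or Control replicate 2 or 3 (adjusted p = 0.0514 to 0.0588), and Irf2 without knockout replicate 1 or 2 or Control replicate 1 or 2 (adjusted p = 0.0509 to 0.0534). Tlr4, Irf1, Irf3, Irf8 and Ifnar1 were not called.

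**Figure D4:**
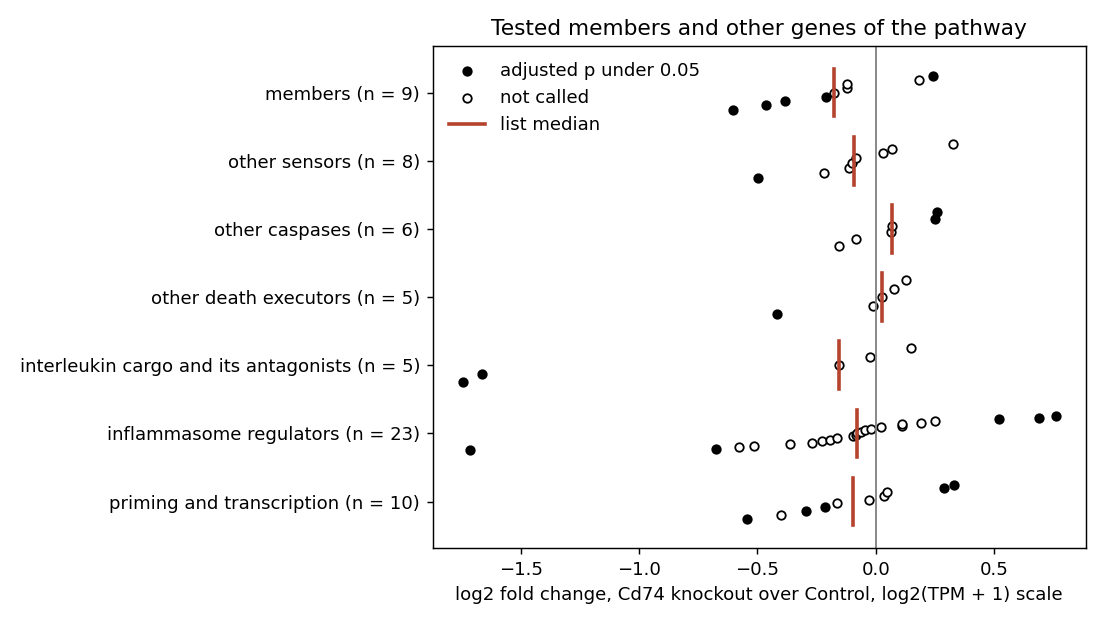
Log2 fold change of Cd74 knockout over Control (x axis, log2(TPM + 1) scale) for each tested gene of the described set and of 6 other lists, with filled points for an adjusted p under 0.05, open points for genes not called and a red line at the list median. The number of tested genes stands beside each list. Il1a, Gbp5 and Il1b lie far to the left at -1.75, -1.71 and -1.66, while the described genes lie between -0.60 and 0.24.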

How the data were processed

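Total RNA of 6 libraries was sequenced on an Illumina instrument, per the labels. The authors deposited 1 table of 17217 rows by gene symbol. Its header names no unit, and the deposited values were read as TPM because each column summed to between 991721 and 998572. GRCm39 and DESeq2 are named in the submitters' processing notes without a role, and the aligner, counter and annotation version are not given in the sources used here.

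Reads were recovered by multiplying TPM by the union exon length in GENCODE M21 (GRCm38, used for lengths and transcript letters alone) and dividing by the library's step. Within 0.02 read of a whole number in each library there were 16505 rows, with 684 more at a searched length (tolerance 0.003 read, Casp1 among them at 3136 bases) and 28 at none. Here 1 read in 1 kb was worth 0.0558 to 0.0883 TPM.

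The groups were set against each other by limma-trend (limma 3.58.1, R 4.3.3, robust eBayes) on log2(TPM + 1), leaving out rows of mean TPM under 1, two-sided, with Benjamini-Hochberg adjustment. Fold changes on this scale understate low genes. Alternatives were another pseudocount, other filters, 2 scalings, limma-voom on recovered reads, a replicate block and each library left out. The recovery and the test were tested on simulated data. All 10 genes are named, and of the other lists the called genes and those without a row. Others named are examples that were not called, chosen after their values were seen. The genes and lists were chosen with earlier results of these data known. Some items are not reported here.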

Additional observations from a re-analysis of the deposited data

How the results depend on the processing

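All 9 tested genes kept their direction in every alternative that tested them (Nlrc4 was not tested with the filter raised to 5 TPM). As reported, 1 gene was higher and 4 were lower in the knockout. With 1 library left out at a time, 0 to 1 were higher and 2 to 3 lower. The count of lower genes was 3 with no filter on mean TPM, 4 with a pseudocount of 0.1, under both scalings or with the filter raised to a mean of 5 TPM, and 5 with limma-voom on recovered reads, which added Casp1. The count of higher genes was 1 in each of these. Called genes of the other pathway lists numbered 16 as reported, 11 to 16 with 1 library left out and 16 to 21 otherwise. Median-of-ratios scaling moved the median log2 fold change of all rows from 0.04 to 0.003, less than any called difference here, and over all rows the split was 1821 higher and 1715 lower, against 2406 and 1313 as deposited. Replicate numbers were not taken to pair the samples. Same-numbered libraries deviated from their group means with correlations of 0.13, -0.08 and 0.03, and whether they share an origin cannot be told from this. With a replicate block 1 gene was higher and 3 lower, as Naip2 lost its call (adjusted p = 0.0737), and the other pathway lists held 18 calls. Pycard alone of the described genes was too low to test, at 0 to 8 reads a library, in libraries of 36445462 to 59236599 recovered reads.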
